A study of Homo sapiens with 12 samples.

Results

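The genes described here carry the symbols of proteins of the cytosolic ribosome. They were chosen by symbol, as RPL or RPS followed by a digit plus RPSA, RPLP0, RPLP1 and RPLP2, without the RPS6K kinases and without pseudogenes. The rule found 77 of the 18239 genes that have a probe set of their own among those analysed here. Of these, 50 have a large-subunit symbol (RPL and RPLP) and 27 a small-subunit symbol (RPS). A symbol alone does not show that the product is part of the ribosome.

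Total RNA was measured on 12 Affymetrix arrays, 1 for each of 4 treatments in each of 3 human lymphoma lines, OCI-LY3, OCI-HBL1 and OCI-LY10, which belong to the ABC type of diffuse large B cell lymphoma (ABC-DLBCL). Combo cells received 500 nM CPI203, which blocks the bromodomains of BET proteins, together with 50 µM IRAKi, an inhibitor of the IRAK kinases of Toll-like receptor signalling that the labels do not name further. CPI203 cells and IRAKi cells received 1 of these agents, and Control cells neither. The treatment protocol gives 18 h of CPI203 and 6 h of IRAKi. The sample labels, however, give 24 h for Combo, CPI203 and Control and 6 h for IRAKi alone. Any comparison with IRAKi alone therefore also compares different label times. The cell line is the replicate, so that n = 3 in each group and each line is an established culture sampled once per treatment.

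The cytosolic ribosome joins a large subunit, which forms peptide bonds, to a small subunit, which reads the mRNA, and its proteins are assembled with ribosomal RNA in the nucleolus. Most mRNAs of ribosomal proteins begin with a C and a run of pyrimidines at their first base, the 5′ terminal oligopyrimidine (TOP) motif, through which the mTORC1 kinase and the RNA-binding protein LARP1 control their translation. MYC, a transcription factor whose gene is a known target of BET inhibitors, promotes ribosome production in B cell lymphoma. A few members have a paralogue in the genome, among them RPL22 with RPL22L1, RPL26 with RPL26L1, RPL39 with RPL39L and RPS27 with RPS27L.

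Sequence at the annotated start was searched for the TOP motif. The start used in these cells was not measured, so a gene without a match may still have the motif. RefSeq promoter windows on GRCh38.p14 were found for 63 members (75 windows, with 2 Y-linked genes left out). A C followed by at least 4 pyrimidines at the first transcribed base was present in 57.3% of member windows, against 4.07% of the 35116 windows of all genes. By gene, 43 of 63 members, or 68.3%, had it in at least 1 window, against 5.14% of all genes. The 6 windows below, of core members and of paralogues described later, hold it, each with 25 bases before the start and 20 from the start on, and the capitals mark the pyrimidine run at the start.
RPS6: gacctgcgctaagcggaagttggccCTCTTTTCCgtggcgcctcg
RPL13A: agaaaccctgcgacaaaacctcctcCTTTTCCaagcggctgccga
RPS19: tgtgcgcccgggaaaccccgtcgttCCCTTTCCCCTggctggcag
RPL22: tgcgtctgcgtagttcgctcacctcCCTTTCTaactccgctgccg
RPL22L1: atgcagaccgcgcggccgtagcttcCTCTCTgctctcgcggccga
RPL31: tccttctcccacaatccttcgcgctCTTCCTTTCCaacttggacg

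The windows lie at chr9:19380217-19380261 on the minus strand for RPS6, chr19:49487583-49487627 on the plus strand for RPL13A, chr19:41860230-41860274 on the plus strand for RPS19, chr1:6199576-6199620 on the minus strand for RPL22, chr3:170870176-170870220 on the minus strand for RPL22L1 and chr2:101002264-101002308 on the plus strand for RPL31. The next 4 windows, of the same length, belong to genes on which the treatment or line results turn and do not start with the run, and all of their letters are in lower case.
RPL7L1: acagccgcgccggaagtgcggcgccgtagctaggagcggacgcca
RPL26L1: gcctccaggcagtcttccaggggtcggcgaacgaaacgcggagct
RPS27L: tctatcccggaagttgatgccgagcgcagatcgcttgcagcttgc
RPS29: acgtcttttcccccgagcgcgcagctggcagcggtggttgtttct

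They lie at chr6:42879591-42879635 (plus strand) for RPL7L1, chr5:172958704-172958748 (plus strand) for RPL26L1, chr15:63157458-63157502 (minus strand) for RPS27L and chr14:49598691-49598735 (minus strand) for RPS29. The E-box CACGTG, the letters bound by MYC with its partner MAX, was searched in the 250 bases before the start. Because the motif is its own reverse complement, 1 search covers both strands. It was present in 5.33% of member windows and in 6.34% of all windows. The 4 members with it were RPL13A, RPL19, RPL7L1 and RPS28. For RPL7L1, which fell with CPI203, the motif begins 116 bases before the start, and for RPL13A, which did not pass any test of treatment, 221 bases before it. The capitals below mark the motif, in windows at chr6:42879483-42879522 and chr19:49487370-49487409, both on the plus strand. A match in these letters is a description of the sequence and not a measured binding site.
RPL7L1 upstream: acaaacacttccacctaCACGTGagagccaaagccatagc
RPL13A upstream: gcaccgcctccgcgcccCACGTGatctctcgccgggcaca

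The deposited values are RMA log2 levels with array medians between 4.64 and 4.73. They carry no counts, and the number of arrays limits the precision. Members lie near the top of this scale: 60 of the 76 that passed the filter on low values had a mean above 13, and the highest value of any probe set on an array was 14.33 to 14.45. The median member stood between 13.63 and 13.76 on every array. On the OCI-LY10 IRAKi array the non-specific control probe sets were at 4.00, against 3.64 to 3.79 on the other 11. B cell genes CD79A, CD79B, MS4A1, PAX5 and CD22 were above the filter level of 4.20 on all 12 arrays. Of 14 markers of T cells, myeloid cells and fibroblasts, 4 (CD3D, CD8A, CSF1R and DCN) were above it on none, CD5 was above it on all, and 9 were above it on 1 to 10 arrays, with COL3A1 (up to 6.65) and ITGAM (up to 6.00) the highest. Their part in the results was not tested. In such bulk RNA, fewer cells and less RNA per cell cannot be told apart, and RMA sets all arrays to the same distribution. The poly-A spike-ins, bacterial transcripts added to the RNA, were 0.48 ± 0.26 higher with Combo, 0.31 ± 0.17 higher with CPI203 and 0.23 ± 0.04 higher with IRAKi than in Control (SD over 3 lines).

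In the highest probe set of each gene, the signals of the cytosolic ribosomal protein mRNAs had a smaller median size of change from Control than all genes tested. Of these 76 sets 60 had means above 13, near the highest values of any array, and lower sets of 14 of the genes were called with Combo. With Combo, limma called 1 of 76 members, which fell, beside 32.1% of the 13120 genes tested that were called, 16.7% fallen and 15.4% risen. With CPI203 it called 2 members, both fallen, beside 13.1% of all genes called and 6.21% fallen. With IRAKi it called 0, beside 0.168% of all genes, and 1 member, RPL35A, had an unadjusted p below 0.05. The median change was 0.04 with Combo, 0.02 with CPI203 and 0.02 with IRAKi on the log2 scale, and the median size of a change was 0.06, 0.04 and 0.05, against 0.29, 0.21 and 0.16 over all genes tested. With poly-A scaling, in which each array is set to the same spike-in level, the member medians became -0.44 with Combo, -0.28 with CPI203 and -0.21 with IRAKi, beside medians of -0.49, -0.30 and -0.23 over all genes, and all 76 members were below 0 in each. With probe sets averaged per gene in place of the highest set 10 members were called with Combo, 8 risen and 2 fallen. With trend and robust variance estimation it was 6, 5 risen and 1 fallen. The share of all genes called in these fits is not given here.

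The intervals bound the signal of these sets and not the amount of mRNA, since how far signal follows mRNA near the top of the scale was not tested. The 95% interval lay within 0.5 on the log2 scale on either side of 0 for 68 members with Combo, 71 with CPI203 and 73 with IRAKi. The median SE was 0.10, and the SD of a member's change over the 3 lines had a median of 0.06 with Combo, 0.05 with CPI203 and 0.08 with IRAKi. The median change with Combo was 0.05 over 27 small-subunit members and 0.04 over 49 large-subunit members, placed by symbol. The few calls were all in genes with an RPL symbol, RPL7L1 and RPL39L. By start motif, the 43 members with a TOP start had a median change of 0.04 with Combo and no call. The 20 without a match at the annotated first base had a median of 0.04 and 1 call, RPL7L1. Starts were not measured in these cells, so some of the 20 may still have a TOP mRNA. Neither the subunits nor the start classes were tested against each other.

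**Figure D1:**
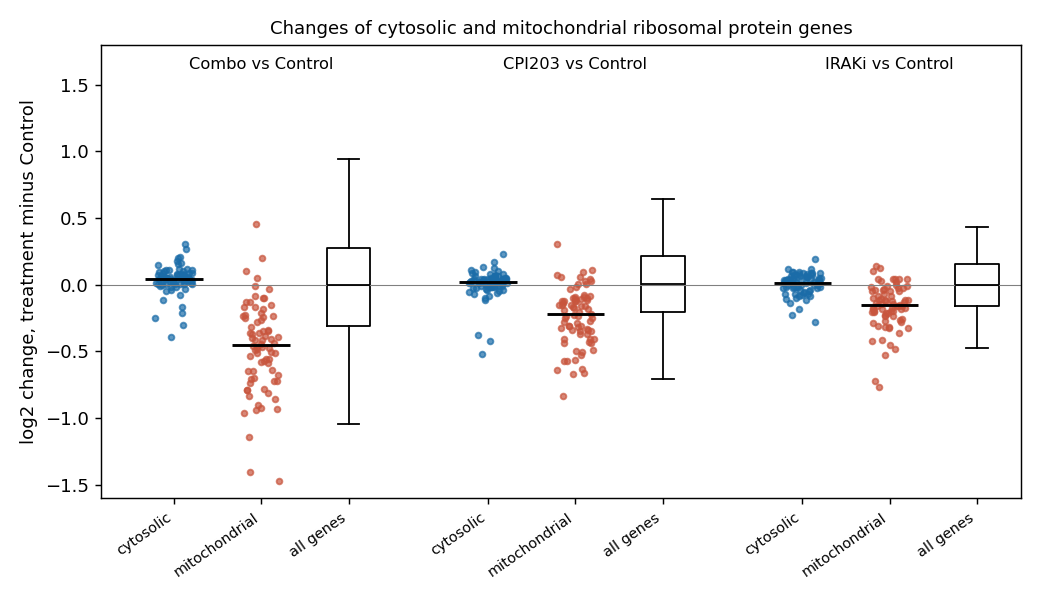
Log2 change of each treatment minus Control (vertical axis) for each cytosolic ribosomal protein gene (blue points), each mitochondrial ribosomal protein gene (red points) and all tested genes (box at the quartiles, whiskers at the 5th and 95th percentiles); black lines are medians. Cytosolic members lie close to 0 with a median of 0.04 with Combo, while the mitochondrial ones lie lower, with a median of -0.45.

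Members with known special roles are described by their highest sets, whose means were above 13 for the 8 genes named. RPL5 and RPL11 form, with 5S rRNA, the particle that can bind the p53 regulator MDM2. RPL11 had 13.88, 14.05 and 14.01 with Combo in lines OCI-LY3, OCI-HBL1, and OCI-LY10, 13.81, 14.00 and 13.99 with CPI203, 13.88, 14.04 and 14.03 with IRAKi, and 13.81, 13.97 and 14.03 in Control. The groups overlapped, and the change with Combo was 0.05 with a 95% interval of -0.16 to 0.25. RPL5 had a change of 0.12 with Combo (-0.11 to 0.35), 0.05 with CPI203 (-0.18 to 0.28) and 0.03 with IRAKi (-0.19 to 0.26).

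RPS6, the small-subunit protein phosphorylated by S6 kinase, had 13.78, 13.69 and 13.98 with Combo, 13.83, 13.78 and 13.94 with CPI203, 13.68, 13.82 and 13.95 with IRAKi, and 13.78, 13.69 and 13.88 in Control, in the same order of lines. Its levels overlapped in all groups, with a change of 0.03 with Combo (95% interval -0.19 to 0.25). The acidic stalk proteins RPLP1 and RPLP2, which recruit elongation factors, stood at 0.10 (-0.11 to 0.31) and 0.05 (-0.17 to 0.27) with Combo. RPS19, a gene mutated in Diamond-Blackfan anaemia, stood at -0.02 (-0.26 to 0.23), RPS3, of the mRNA entry channel, at 0.01 (-0.21 to 0.22) and RPL13A, which also acts in translational silencing, at 0.02 (-0.19 to 0.23). None of these 8 genes passed the test with any treatment.

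RPL7L1 was the exception that recurred. Its product resembles RPL7 and is related to the yeast protein Rlp7, a factor of large-subunit assembly. It had log2 levels of 10.70, 11.62 and 9.81 with Combo in lines OCI-LY3, OCI-HBL1, and OCI-LY10, 10.56, 11.65 and 9.82 with CPI203, 11.08, 12.09 and 10.26 with IRAKi, and 10.91, 12.20 and 10.20 in Control. Within each line the Combo and CPI203 arrays were below the Control and IRAKi arrays, whereas the groups as a whole overlapped because the lines differ. RPL7L1 fell by 0.39 with Combo (SE 0.11, limma adjusted p = 0.0182) and by 0.43 with CPI203 (SE 0.11, adjusted p = 0.0284), in 3 of 3 lines each. With IRAKi it changed by 0.04 (95% interval -0.19 to 0.28). It was also lower with Combo than with IRAKi, by a log2 change of -0.44 (limma adjusted p = 0.0197, 18.7% of all genes called and 10.5% fallen), and was the only member called there. Combo and IRAKi also differ in label time, 24 h against 6 h. Leaving out any 1 line kept these 3 directions but ended the calls, with adjusted p between 0.0673 and 0.154 for Combo and between 0.152 and 0.171 for CPI203 against Control, and leaving out the OCI-LY10 IRAKi array gave 0.0616 for Combo against IRAKi. RPL7 itself, on the other hand, stood at 0.16 with Combo (-0.12 to 0.43) and 0.23 with CPI203 (-0.05 to 0.50).

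RPL39L, a paralogue of RPL39 best known from testis, had 8.60, 9.31 and 8.07 with Combo in the same order of lines, 8.42, 8.97 and 7.94 with CPI203, 9.12, 9.29 and 8.41 with IRAKi, and 9.09, 9.29 and 8.51 in Control. The CPI203 value was the lowest in each line, and with Combo only OCI-LY3 and OCI-LY10 were lower than Control. The gene fell by 0.52 with CPI203 (SE 0.13, limma adjusted p = 0.0289). With Combo it stood at -0.30 (95% interval -0.59 to -0.01, adjusted p = 0.104), and the difference between Combo and CPI203 was 0.21 (-0.07 to 0.50). Without any 1 line the call with CPI203 was lost, with adjusted p between 0.0536 and 0.212, and without OCI-HBL1 the fall with Combo was called (adjusted p = 0.0486). RPL39 stood at 0.00 with Combo (-0.22 to 0.22) and at 0.02 with CPI203 (-0.20 to 0.23).

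The other paralogues did not pass the tests of treatment. RPL22L1, whose product can take the place of RPL22, stood at 0.18 with Combo (95% interval -0.15 to 0.52), and RPL22 at -0.04 (-0.26 to 0.18). RPS27L, a p53-inducible paralogue of RPS27, stood at -0.12 with Combo (-0.34 to 0.11) and RPS27 at 0.04 (-0.17 to 0.24). RPL26L1 stood at -0.17 (-0.42 to 0.09) and RPL26 at 0.21 (-0.07 to 0.49), while RPL36AL stood at -0.08 (-0.31 to 0.15) and RPL36A at 0.15 (-0.08 to 0.37). RPS4X, of the X chromosome, stood at 0.20 with Combo (-0.04 to 0.43). RPL10L and RPL3L, paralogues of RPL10 and RPL3 known from testis and from striated muscle, were near the filter: RPL10L had values between 3.80 and 4.62, and RPL3L, with a mean of 3.56, was not tested. RPL10 and RPL3 stood at 0.01 (-0.20 to 0.21) and 0.05 (-0.16 to 0.26) with Combo.

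**Figure D2:**
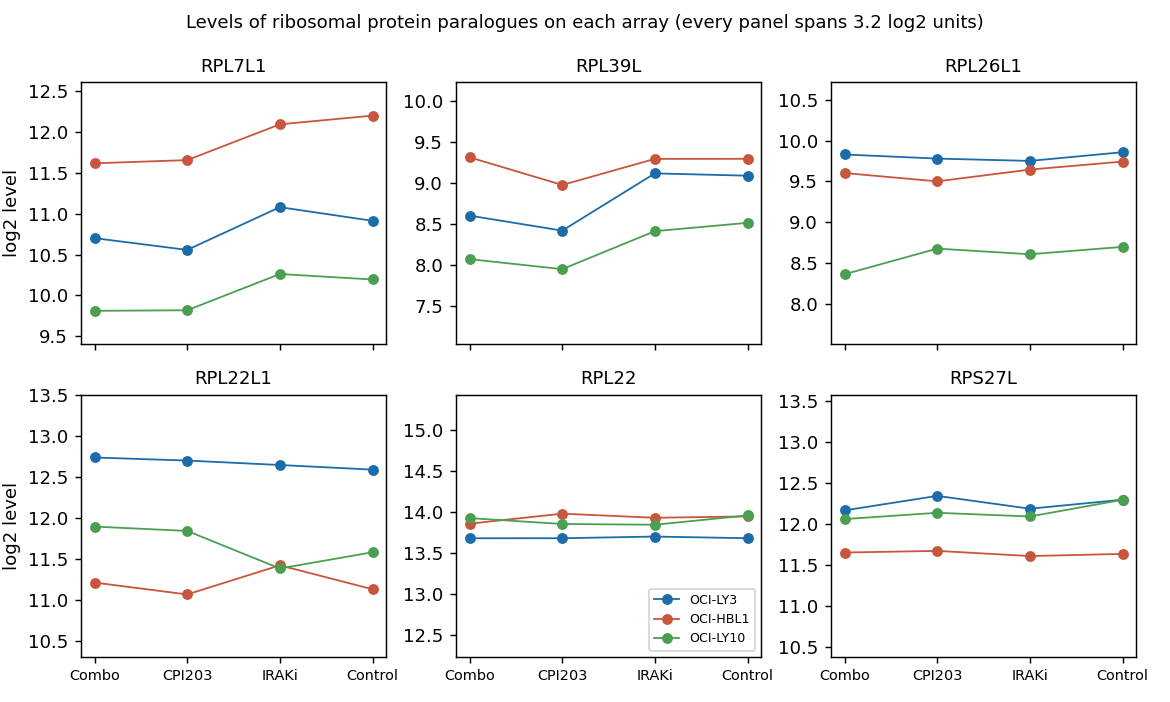
Log2 level (vertical axis, 3.2 log2 units in every panel) of 6 ribosomal protein genes on each array, by treatment (horizontal axis) and cell line (colour). RPL7L1 is lower with Combo and CPI203 than in Control in every line, RPL22 is flat near 13.7 to 14.0, and the lines differ by more than the treatments for RPL7L1, RPL22L1 and RPL26L1.

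RPS9, a small-subunit protein of the mRNA entry side, came closest to a rise. It had 12.69, 12.76 and 13.05 with Combo and 12.52, 12.30 and 12.76 in Control in lines OCI-LY3, OCI-HBL1, and OCI-LY10. Each line was higher with Combo, by 0.31 on average (95% interval 0.06 to 0.55, limma adjusted p = 0.057), and the groups overlapped. It was named after its values were seen. With poly-A scaling, the change of RPS9, like that of all members, was below 0.

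Adding IRAKi to CPI203 moved no highest set of a member past the test, whereas some lower sets rose. Combo against CPI203 had 0 of 76 members called by limma, beside 4.66% of all genes, and 0 members with an unadjusted p below 0.05. The median difference was 0.02, with values between -0.16 for RPL35A and 0.34 for RPL10L, and all but 3 members had a 95% interval within 0.5 of 0. Set by set, 9 of the 203 member sets fitted rose (4.43%, beside 3.4% of all sets called and 1.44% risen), all of them lower sets, of RPL28, RPL31, RPL32, RPL37, RPS20, RPS23 and RPS29. None of the 9 was called when any 1 line was left out, and 2 were called with poly-A scaling. The interaction term, Combo minus CPI203 minus IRAKi plus Control, had 0 members called beside 0.00762% of all genes, and again 0 members with an unadjusted p below 0.05. This term includes the IRAKi arrays, with a label time of 6 h against 24 h for the others. The comparisons share their Control arrays.

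How far these small changes follow from the position on the scale was not tested, but level and calls moved together. None of the 60 members with a mean above 13 was called with Combo, and their changes did not exceed 0.20 in size. Of the 43 other genes with a mean above 13, 3 were called with Combo (6.98%), against 32.1% over all genes. Their median size of change was 0.07, against 0.04 for the 60 members. The 16 members at or below 13 held all calls, with a median size of change of 0.21.

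Members with several probe sets were also described set by set. The 77 members had 212 probe sets in all, of which 203 passed the filter and were fitted in a run over 30492 sets. Many carry names that end in x_at or s_at, which mark probes shared between transcripts. Such names were borne by 41 and 23 of the 77 chosen sets. With Combo limma called 26 of the 203 sets (12.8%, beside 28.9% of all sets), 16 risen (13.8% of all sets rose) and 10 fallen (15.1% fell). All 26 had means below 12, where 77 sets lay, and none of 126 sets at or above 12 was called. Apart from the chosen set of RPL7L1, the calls were in lower sets of 14 genes, 10 with a risen set and 5 with a fallen one, RPL37A having both. Scaled to the poly-A spike-ins, 3 rose and 33 fell. In the fit by gene, that scaling put the median Combo change over all genes at -0.49. Without line OCI-LY3, line OCI-HBL1 or line OCI-LY10 in turn 10, 18 and 11 sets were called. The share of all sets called in these fits is not given here, so the counts cannot be placed above or below it.

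The sets with the largest rises belonged to RPS29, RPL31 and RPL32. For RPS29, a zinc-binding protein of the small subunit, set 11730323_at had 9.89, 10.15 and 9.99 with Combo in lines OCI-LY3, OCI-HBL1, and OCI-LY10, 9.23, 9.69 and 9.15 with CPI203, 8.98, 9.40 and 9.23 with IRAKi, and 8.24, 8.88 and 8.18 in Control. All Combo, CPI203 and IRAKi arrays were above all Control arrays. The set rose by 1.57 with Combo (SE 0.14, limma adjusted p = 0.000118) and by 0.92 with CPI203 (SE 0.14, adjusted p = 0.00507), and it stood at 0.77 with IRAKi (SE 0.14, adjusted p = 0.0719). The call with CPI203 was lost when OCI-LY3 (adjusted p = 0.0909) or OCI-LY10 (0.0533) was left out and with poly-A scaling (0.62, adjusted p = 0.0617). The highest set of the same gene, 11757629_x_at, had 13.68, 13.76 and 13.82 with Combo and 13.66, 13.75 and 13.80 in Control, a change of 0.02 (SE 0.11).

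RPL31, a protein near the peptide exit of the large subunit, had 11.05, 10.15 and 9.89 with Combo in set 11746229_a_at, 9.91, 9.06 and 8.17 with CPI203, 10.45, 9.83 and 9.0 with IRAKi, and 9.83, 8.68 and 7.97 in Control. Combo was highest in each line and all of its arrays lay above all Control arrays. The set rose by 1.54 with Combo against Control (SE 0.16, limma adjusted p = 0.000205) and by 1.31 with Combo against CPI203 (adjusted p = 0.00862) but was not called there when any 1 line was left out (adjusted p between 0.0775 and 0.139), while its highest set changed by 0.07 (SE 0.11). For RPL32, set 11757122_s_at had 8.45, 9.06 and 10.11 with Combo and 7.46, 8.20 and 8.71 in Control, overlapping between lines, and rose by 1.08 (SE 0.14, adjusted p = 0.000569). The highest set of RPL32 changed by 0.04 (SE 0.11). These 3 rises were called without any 1 line and with poly-A scaling, where they were 1.09, 1.06 and 0.60.

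**Figure D3:**
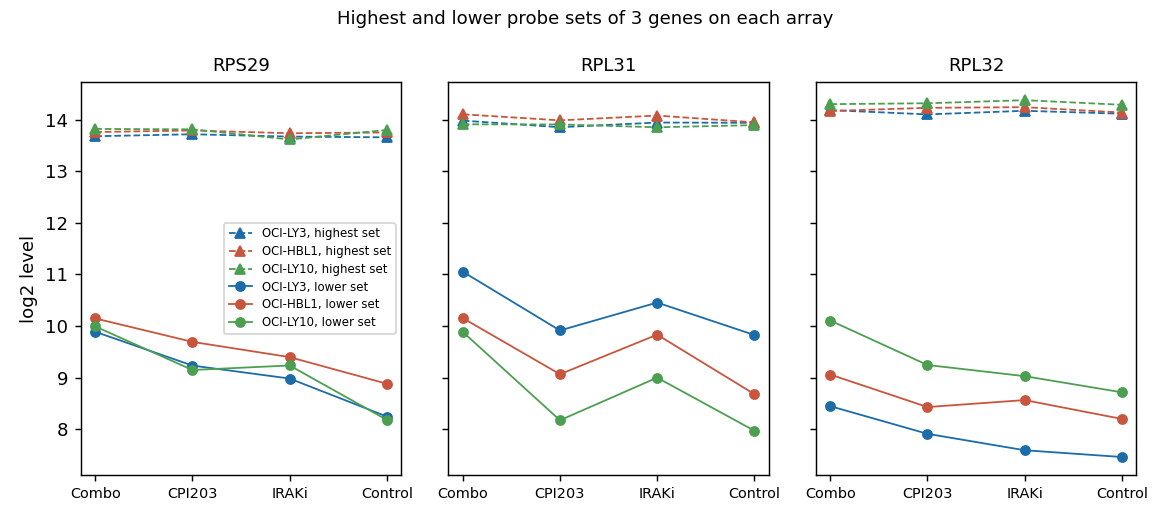
Log2 level (vertical axis) by treatment (horizontal axis) of the highest probe set (triangles, dashed) and the lower set with the largest rise (circles, solid) of RPS29, RPL31 and RPL32, with 1 line per cell line. The highest sets lie flat near the top of the scale, and the lower sets are higher with Combo than in Control in every line, by 1.57, 1.54 and 1.08 on average.

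Other lower sets moved less. With Combo, sets of RPL28 rose by 0.89 and 0.70, of RPL37 by 0.78, of RPS23 by 0.75, of RPS20 by 0.75 and 0.66 and of RPS15A by 0.68 and 0.50. Scaled to the poly-A spike-ins each of these stayed above 0 but none was called, and only the set of RPS23 and the first of RPS20 were called without any 1 line. Further risen sets belonged to RPL31, RPL32, RPL37A and RPS27L. RPS27L was split: its chosen set stood at -0.12 and its other set, 11759492_at with a mean of 4.35 near the filter level, rose by 0.54 (adjusted p = 0.0187), a call lost whichever line was left out.

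Fallen sets were fewer. For RPS26, of the mRNA exit side of the small subunit, set 11732942_a_at had 5.56, 6.60 and 6.65 with Combo and 6.95, 6.93 and 7.94 in Control. All Combo arrays were below all Control arrays, and the set fell by 1.00 with Combo (SE 0.20, limma adjusted p = 0.00458) and by 0.79 with CPI203 (SE 0.20, adjusted p = 0.0347, 10.3% of all sets called), calls that were lost when OCI-LY3 (adjusted p = 0.0787 and 0.277) or OCI-LY10 (0.0696 and 0.166) was left out. Its highest set stood at 0.08 (SE 0.10 in the fit by gene). RPL34 had a set that fell by 0.85 (SE 0.18, adjusted p = 0.00597), lost without OCI-LY3 (0.083) and without OCI-LY10 (0.0628), and sets of RPS14 and RPL37A fell by 0.43 and 0.42, calls lost whichever line was left out.

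RPL7L1 had 7 sets, and 6 of them fell with Combo, by 0.39 to 0.87. The seventh, 11760105_at, with a mean of 5.11, stood at 0.21 (adjusted p = 0.389). The largest falls were in sets 11754767_x_at at -0.87 (adjusted p = 0.00401) and 11739074_x_at at -0.79 (adjusted p = 0.0021), and both were called without any 1 line. With CPI203, 3 of the 7 sets fell, and RPL7L1, RPL39L, RPS26 and RPS29 were the genes with a called set, 1 risen and 5 fallen sets in all (5.29% of all sets rose and 4.99% fell). With IRAKi, 0 of the 203 sets were called, beside 0.0885% of all sets. The exons or introns under the probes of each set were not analysed here, and no transcript is named for them.

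**Figure D4:**
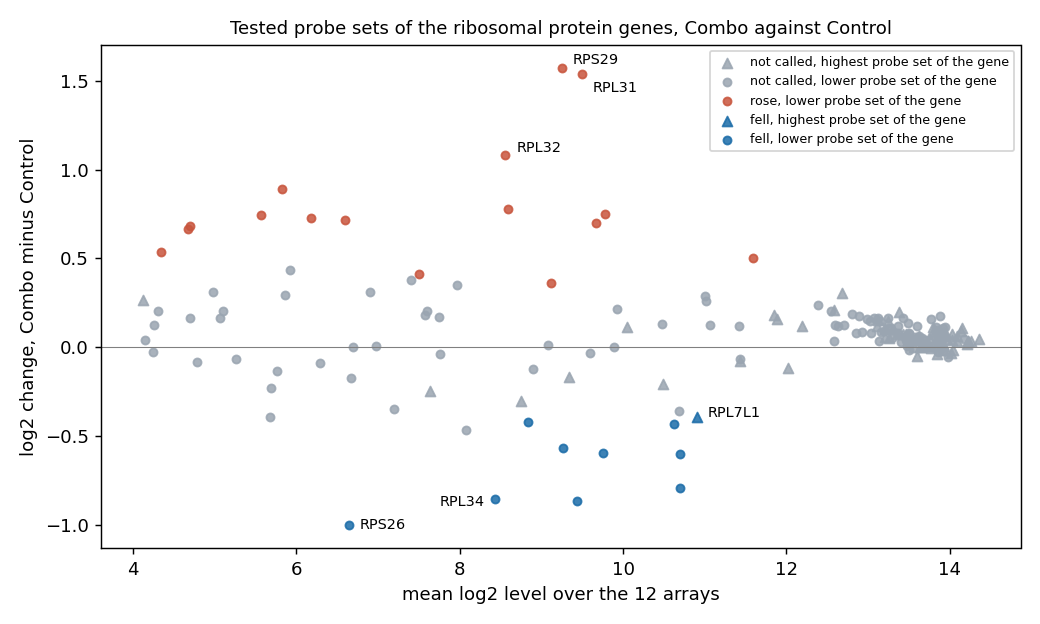
Mean log2 level over the 12 arrays (horizontal axis) and log2 change of Combo minus Control (vertical axis) for each ribosomal protein probe set that passed the filter; triangles are the highest set of a gene, circles the lower sets, and colour marks sets that rose, fell or were not called. All 26 called sets lie below a level of 12, and the sets above it gather near 0.

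Lists of other genes of ribosome production were counted in the same fit and were not tested against all genes, of which 16.7% fell and 15.4% rose with Combo. Mitochondrial ribosomal proteins, which build the ribosome of the organelle, are also nuclear genes: with Combo 50 of 76 fell and 1 rose (median change -0.45), with CPI203 11 fell (median -0.22), and 17, 40 and 19 fell with Combo when OCI-LY3, OCI-HBL1 and OCI-LY10 were left out. Scaled to the poly-A spike-ins 70 fell with Combo. Cytosolic members had median levels of 13.64 for the large and 13.82 for the small subunit, against 9.86 for the mitochondrial ones. The highest sets therefore do not separate position on the scale from family. Below a mean of 12 lay 77 of the 203 cytosolic sets fitted. With Combo 16 of these rose and 10 fell, beside 13.8% and 15.1% of all sets. They were not tested against the mitochondrial genes.

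Of 16 assembly factors and chaperones of ribosomal proteins, 8 fell and 1 rose with Combo (median -0.57, beside 16.7% of all genes fallen and 15.4% risen), and 2 fell with CPI203 (6.21% of all genes fell). With Combo, RRS1 and RPF2, which bring the 5S particle into the large subunit, stood at -1.37 ± 0.11 (SE) and -1.08 ± 0.14, PDCD2L, related to a chaperone of RPS2, at -1.39 ± 0.15 and BYSL, of small-subunit maturation, at -0.95 ± 0.12. GRWD1, related to the yeast chaperone of RPL3, stood at -0.94 ± 0.12. The kinase RIOK2 rose by 0.39, with a change of -0.09 under poly-A scaling. It was not called without the OCI-LY10 IRAKi array, without OCI-LY3 or without OCI-LY10. PDCD2, TSR2, a chaperone of RPS26, and 5 further members did not pass.

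Of 24 translation factors and other genes whose mRNAs are known for a TOP start 1 rose and 1 fell with Combo (median 0.08, median level 12.75), namely EEF1D by 0.36 and EIF3M with -0.43, and neither was called when any 1 line was left out. EEF1A1 and EEF2, the main elongation factors, stood at -0.02 ± 0.11 and 0.12 ± 0.10 (SE). With poly-A scaling, which lowered the median change of all genes too, 8 of the 24 fell, and EEF1D stood at -0.12. Of the ubiquitin fusions and RACK1 only 1 gene, FAU, was tested, and it stood at 0.02 ± 0.09.

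Of 13 genes of the TOR pathway and TOP binding proteins 3 rose and 4 fell with Combo, beside 15.4% and 16.7% of all genes, and 6 did not pass. LARP1, which binds the TOP motif, fell by 0.71 (SE 0.12, limma adjusted p = 0.00223), RPTOR, the scaffold of mTORC1, by 0.93 (SE 0.14), and EIF4EBP2, a repressor of the cap-binding protein, rose by 0.93 (SE 0.12) but was not called with poly-A scaling (0.45, adjusted p = 0.0991). TSC1, an inhibitor of mTORC1, rose by 0.67, and RPS6KB2 by 0.41 with a change of -0.07 under poly-A scaling. EIF4E and AKT1S1 fell by 0.34 and 0.67. With poly-A scaling, which lowered the median change of all genes too, 0 of the 13 rose and 7 fell, so the rise of TSC1 was not called either. Without line OCI-LY3, line OCI-HBL1 or line OCI-LY10 in turn 1, 2 and 2 of the 13 rose and 2, 2 and 3 fell, LARP1, RPTOR and EIF4EBP2 among them each time. Among 6 genes of nucleolar stress and p53, SESN1, SESN2 and CDKN1A rose by 1.14, 1.51 and 0.76 with Combo, beside 15.4% of all genes risen. CDKN1A was not called when any 1 line was left out or with poly-A scaling. Without OCI-HBL1 3 of the 6 rose and 1 fell, and with poly-A scaling 2 rose and 2 fell. MDM2 stood at 0.45 ± 0.29 (SE), BBC3 at -0.33 ± 0.24 and ZMAT3 at -0.16 ± 0.11, and none of them was called with Combo.

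The lines differed in a few members and otherwise stood close together. An F test over the 3 lines in the limma fit called 17 of 76 members, or 22.4%, beside 65.9% of all genes tested. Of the 74 members without the 2 Y-linked genes, whose levels are not given, 16 were called, 55 had line means within 0.25 of each other and 8 had a range above 0.5. The line means rest on 4 arrays each, under different treatments, with treatment as a term of the fit. The 4 arrays of a line differ in treatment, so these p-values cover the spread of line by treatment and not that between repeat cultures.

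RPL7L1 had the widest range. Its mean was 10.02 ± 0.24 in OCI-LY10, 10.81 ± 0.23 in OCI-LY3 and 11.89 ± 0.30 in OCI-HBL1 (SD, n = 4 arrays), so that OCI-LY10 was lower than OCI-HBL1 by a log2 difference of -1.87 (3.65-fold, limma F test adjusted p = 4.26e-07). Each pair of neighbours in this order differed by more than the spread, with no overlap of the arrays. RPL22L1 had 12.67 ± 0.06 in OCI-LY3, 11.68 ± 0.24 in OCI-LY10 and 11.21 ± 0.15 in OCI-HBL1, so that OCI-LY3 was 2.76-fold higher than OCI-HBL1 (F test adjusted p = 1.94e-05). The arrays of OCI-LY3 lay above all others, and those of OCI-LY10 and OCI-HBL1 overlapped, at a difference of 0.47 ± 0.13 (SE). Its partner RPL22 went the other way by a small amount, OCI-LY3 standing at -0.24 ± 0.08 relative to OCI-HBL1 (F test adjusted p = 0.04997).

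RPL26L1 separated OCI-LY10, at 8.59 ± 0.15, from OCI-LY3 at 9.80 ± 0.05 and OCI-HBL1 at 9.62 ± 0.10 (SD, n = 4). OCI-LY10 was lower than OCI-HBL1 by a log2 difference of -1.03 (2.05-fold), while OCI-LY3 minus OCI-HBL1 was 0.18 ± 0.10 (SE). RPL26 was highest in OCI-LY10, 0.46 ± 0.11 (SE) above OCI-HBL1. RPL39L was lowest in OCI-LY10 at 8.23 ± 0.27, then 8.80 ± 0.35 in OCI-LY3 and 9.22 ± 0.16 in OCI-HBL1, and RPS27L had 12.25 ± 0.09 in OCI-LY3 and 12.15 ± 0.10 in OCI-LY10, against 11.64 ± 0.03 in OCI-HBL1. For RPS27L OCI-LY3 and OCI-LY10 differed by 0.10 ± 0.09 (SE).

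The remaining wide ranges were in single genes. RPL27A, represented by a single probe set, had 7.03 ± 0.38 in OCI-LY3, 7.74 ± 0.15 in OCI-LY10 and 8.15 ± 0.26 in OCI-HBL1 (F test adjusted p = 0.000617), with no overlap of the arrays. RPS26 stood at 13.65 ± 0.06 in OCI-LY10, 13.37 ± 0.03 in OCI-LY3 and 13.03 ± 0.05 in OCI-HBL1 without overlap, and RPS21 was lower in OCI-LY10, at 13.37 ± 0.15, than in OCI-LY3 and OCI-HBL1 at 13.95 ± 0.04 and 13.96 ± 0.05. RPS15 had 13.60 ± 0.05 in OCI-LY3 and 13.59 ± 0.09 in OCI-LY10, against 13.17 ± 0.12 in OCI-HBL1. The other called members were RPL5, RPL18, RPS9, RPS20 and RPS24, with differences between lines of at most 0.32. A sequence difference between lines under a probe would also change its level, and this was not tested.

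**Figure D5:**
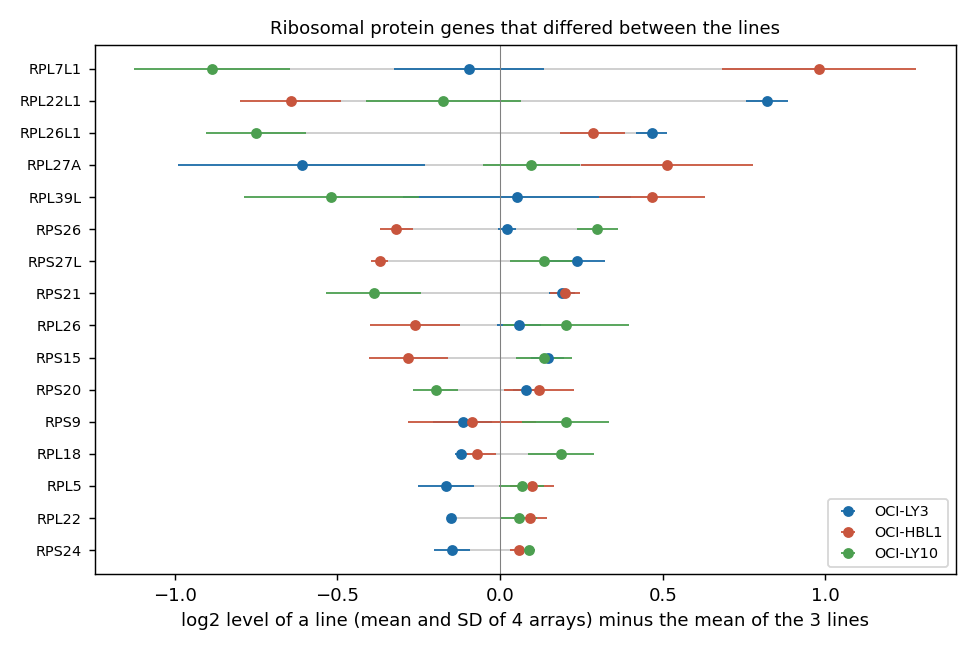
Log2 level of each cell line minus the mean of the 3 lines (horizontal axis; points are means and bars SDs of 4 arrays) for the 16 members that differed between lines and are not Y-linked, ordered by range. RPL7L1 spans 1.87 log2 units and RPL22L1 1.46, while most others span 0.62 or less.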

How the data were processed

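Total RNA of 12 cultures, 4 treatments in 3 lines, was labelled from 150 ng per array. Per the submitters' processing notes, the authors made the deposited log2 values with RMA in Affymetrix Expression Console 1.1. Background correction, quantile normalization and summary into probe sets belong to RMA. The probe library is not given in the sources used here, nor is the genome build.

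Of 49386 probe sets, 45253 carried 1 gene symbol in the array annotation, 1327 several and 2800 none, and only the first kind was used, without 6 control sets. A gene was represented by its set with the highest mean over 12 arrays and tested where that set exceeded the 40th percentile of all values (4.20) on at least 3 arrays, which left 13120 genes and 76 of 77 members. All arrays were fitted together in limma 3.58.1 (R 4.3.3, with version 1.17.8 of data.table) by lmFit, contrasts.fit and eBayes with terms for treatment and line, two-sided, with 6 residual and 3.66 prior degrees of freedom. Benjamini-Hochberg adjustment ran over all genes (or, set by set, over 30492 sets), and a call is an adjusted p below 0.05. Changes in 1 line are 1 array against 1 array. Deviations from group means correlated at 0.82 to 0.91 between arrays of the same line and at -0.50 to -0.35 between lines. The deviations within a group cancel, so negative values between lines follow where the lines differ alike in every group. The line is a term of the fit because same-numbered samples are the same line. The fit was tested on simulated data. Alternatives were other probe set rules, filters, scalings, variance models, fits without the line or of the compared groups alone, and leaving out a line or the OCI-LY10 IRAKi array.

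Members, lists and named genes (called members, paralogues, members with known roles, the widest line ranges) were chosen with earlier results of these data known, so the lists give no independent support. Probe sets named as the largest changes were chosen after their values were seen. Sequences are from RefSeq, GRCh38.p14. Some genes of the family are not reported here.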

Additional observations from a re-analysis of the deposited data

How the results depend on the processing

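The number of members called with CPI203 was 2, and it was 0 with no replicate block (a model with no term for the line), 0 in a fit of only the groups compared and 0 to 0 without any 1 line. With Combo it was 1 against 10 with probe sets averaged per gene, 2 with the filter at the 60th percentile, 2 with median centring (RPS9 rose in both), 10 with poly-A scaling (all fallen), 6 with trend and robust estimation, 0 with no replicate block, 0 with only the groups compared and 0 to 1 without 1 line. For Combo against CPI203 the mean of probe sets gave 3 in place of 0, namely RPL31, RPL32 and RPS20. For Combo against IRAKi, in place of 1, it gave 5, and 0 remained with no replicate block, without the OCI-LY10 IRAKi array, with only the groups compared and without any 1 line (0 to 0). The F test of lines called 34 members with the mean of probe sets, 11 with poly-A scaling, 52 with trend and robust estimation, 11 without the Control arrays and 10 without the CPI203 arrays, in place of 17. Set by set, 26 member sets were called with Combo, 1 with no replicate block and 10 to 18 without 1 line, alternatives added after seeing the data. Leaving out arrays leaves fewer samples, and the cause of the other differences was not tested. The share of all genes or sets called under each alternative is not given here. Among the called lower sets with Combo, 4 of 25 had the sign opposite to their gene's chosen set, in RPL34, RPL37A, RPS26 and RPS27L. The paralogues and the members with known roles were also checked with CPI203 and Combo for opposite signs where the chosen or the other set was called. These came from RPL7L1 set 11760105_at (0.13 with CPI203 and 0.21 with Combo, itself not called) and RPS27L set 11759492_at (0.54 with Combo). Opposite signs with neither set called were not listed. RPL7L1 ranged from -0.88 to -0.30 with Combo and from -0.73 to -0.37 with CPI203 over 13 alternatives each. Precision is limited by 3 lines per group, by levels near the top of the scale and by probes shared between transcripts.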

Other observations

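Probe sets whose annotation names several genes or a pseudogene were outside the tests, and their values are given without one. RPS12, a small-subunit protein, shares 2 sets with the small nucleolar RNA gene SNORA33. Set 11753637_x_at averaged 13.64 with Combo and 13.47 in Control, a change of 0.17 ± 0.04 (SD over 3 lines), and set 11757023_x_at changed by 0.20 ± 0.09. Set 11763923_x_at, shared by RPL32, RPL32P3, SNORA7A and SNORA7B, averaged 8.61 with Combo and 7.77 in Control, a change of 0.84 ± 0.51.

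Among 8 sets with a pseudogene symbol, changes with Combo lay between -0.995 and 0.975. RPL13P5 averaged 7.45 with Combo and 6.47 in Control, a change of 0.97 ± 0.47 (SD over 3 lines). For RPL23AP82, set 11754228_x_at averaged 6.58 with Combo and 7.58 in Control, a change of -0.995 ± 0.29, whereas its set 11763282_x_at changed by 0.27 ± 0.15. Names ending in x_at mark probes shared between transcripts, so parent gene and pseudogene cannot be told apart in such sets.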
